A study of Mus musculus with 22 samples.

Results

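The lysosome and vacuolar ATPase (V-ATPase) genes were taken from the gene symbols of the expression table: 28 whose symbol begins with Atp6v or Atp6ap, the 14 cathepsin genes written Cts plus 1 of the letters a to h, k, l, o, s, z or w, and 22 further lysosomal genes listed by name. Together they were 64 of the 55335 genes in the table. The study knocked down the histone variant H2A.Z in mouse embryos and asked how the transcriptome of preimplantation development depends on it. RNA was sequenced from B6D2F1 embryos at 3 stages, in 22 libraries of 15 pooled embryos each, made by Smart-seq2 from polyadenylated RNA with 16 to 18 preamplification cycles and read as paired 150-bp reads without strand information. Knockdown (KD) zygotes had received about 10 pl of a 20 µM mix of siRNAs against H2A.Z at 20 to 22 h after the hCG injection of the mothers, and were cultured in G1-plus medium. There were 4 control and 3 KD libraries at the 2-cell stage (about 44 h), 4 control and 3 KD libraries of morulae (78 h), and 4 control and 4 KD libraries of blastocysts (94 h). Control embryos shared the strain, culture and stages, and whether they were injected with anything is not stated for the sequenced material. The paper reports that KD left development to the morula unaffected but significantly lowered the share of embryos that formed blastocysts. Whether the sequenced KD and control blastocysts had developed equally far was not tested. Values are FPKM, the fragments of a gene scaled to transcript length and to all mapped fragments of the library, so levels can be set side by side between genes of different length.

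Lysosomes degrade proteins, lipids and glycans with hydrolases that work in acid. The V-ATPase makes that acid: its peripheral V1 sector hydrolyses ATP and turns a rotor, and the membrane-embedded V0 sector carries protons into the lumen, while accessory proteins help assembly and targeting. In preimplantation embryos lysosomes take up and degrade maternal proteins and organelles, and in many cell types the transcription factor TFEB switches on lysosomal and V-ATPase genes together through E-box motifs in their promoters.

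H2afz, which encodes H2A.Z.1, gave a check of the labels. It was at 1244, 1236, 905 and 1178 FPKM in the control 2-cell libraries and at 415, 139 and 112 in the KD ones. Control morulae had 1158, 1336, 1511 and 1421 FPKM and KD morulae 30.3, 25.7 and 29.0. In blastocysts the controls had 2656, 2431, 1945 and 2055 FPKM and the KD libraries 64.2, 67.2, 53.2 and 57.6. Every KD library was below every control library of its stage. The log2 fold change was -5.41 (SE 0.167, adjusted p 9.71e-08) in morulae and -5.19 (SE 0.195, adjusted p 3.63e-08) in blastocysts. At the 2-cell stage it was -2.53 (SE 0.382, adjusted p 0.543), and a two-sided exact permutation test over the 7 libraries gave p = 0.0286, the smallest it allows. H2afv, which encodes H2A.Z.2, had a mean ± SD of 109.6 ± 8.96 FPKM in control and 88.9 ± 7.56 in KD 2-cell embryos, where the groups overlapped (exact permutation p = 0.0857). It fell in morulae from 101 ± 8.75 to 11.3 ± 1.51 FPKM and in blastocysts from 57.5 ± 6.40 to 15.3 ± 3.99, log2 changes of -2.93 (SE 0.147, adjusted p 2.93e-06) and -1.86 (SE 0.217, adjusted p 7.95e-05), with no overlap at either stage. All p-values measure the spread between these libraries, each a pool of embryos.

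Marker genes of the stages were summed to check the labels. The 6 markers of the 2-cell stage summed to a median of 475 FPKM in control and 494 in KD 2-cell libraries, to 11.7 and 12.7 in morulae, and to 2.54 and 14.3 in blastocysts. The 7 trophectoderm markers, none of them at 0 throughout a blastocyst group, summed to 990.1 to 1477 FPKM in control and 583.9 to 783.9 in KD blastocysts, and to at most 146.5 in a morula library. The 9 markers of cumulus and granulosa cells summed to at most 3.70 FPKM in a 2-cell library and 0.373 in a later one, and Ptx3 and Fshr were at 0 in every group. Read totals were not used here. The smallest step between the values of single-exon genes put the relative depth of the libraries between 15.0 and 28.5, and 10143 to 12090 genes reached 1 FPKM in a library.

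Of the 64 genes, 39 were tested at all 3 stages, 50 at 1 stage or more, and 14 at none, testing being limited to genes with at least 1 FPKM in at least 3 libraries of a comparison. A gene that is high in a single group passes this filter through that group, so the counts below describe the tested members. The 14 untested genes never exceeded 1.26 FPKM in a library. They were the V-ATPase genes Atp6v0d2, Atp6v0e2, Atp6v1b1, Atp6v1e2, Atp6v1g2 and Atp6v1g3, most of them known as tissue-restricted forms of the pump, Atp6v1fnb, a neighbour of Atp6v1f that is not a pump subunit, the cathepsins Ctse, Ctsf, Ctsg, Ctsk, Ctso and Ctsw, and Lipa, the lysosomal acid lipase.

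The 64 genes together had a higher summed level in controls at each later stage. Their summed FPKM was 1746 ± 211 (mean ± SD, n = 4) in control 2-cell embryos, 6351 ± 69.8 in control morulae and 8099 ± 483 in control blastocysts. KD libraries summed to 1529 ± 101 (n = 3), 6049 ± 202 (n = 3) and 6998 ± 296 (n = 4). Single genes carried much of this. At the 2-cell stage the highest control means were Atp6v0e, a small V0 subunit, at 312 FPKM, the tetraspanin Cd63 at 261, and the cysteine protease Ctsl at 252. Cd63 led in control morulae with 2202 FPKM and in control blastocysts with 3014. After it came Atp6v0e and Ctsc in morulae, at 424 and 400.5 FPKM, and Atp6v0e and Gm2a in blastocysts, at 594 and 412.

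Most V-ATPase subunits that exist in several forms were represented by a single gene. Atp6v0d1, Atp6v0e, Atp6v1b2, Atp6v1c1, Atp6v1e1 and Atp6v1g1 each gave at least 92.6% of the summed FPKM of their subunit's genes in every library, and Atp6v1b1, the kidney and inner ear form of subunit B, was at 0 throughout. Subunit a, which anchors V0 in its membrane, was mixed. At the 2-cell stage Atp6v0a2 was highest, with 2.81 ± 0.297 FPKM in controls, before Tcirg1 with 1.76 ± 1.00, and the library values of the 2 genes overlapped. In morulae Atp6v0a4 was highest, with 5.56 ± 0.601 FPKM in controls, before Atp6v0a1 with 3.97 ± 0.97. Blastocyst controls kept that order, at 4.92 ± 1.02 and 2.32 ± 0.545 FPKM.

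Single libraries were the highest or lowest of their group for many members at once. Control blastocyst library 1 was the lowest of its group for 33 of the 48 tested members (68.8%, against 33.8% of all genes tested), and control library 5 was the highest for 28 (58.3% against 27.9%). KD 2-cell library 4 was the highest of its group for 28 of 41 members (68.3% against 35.3%), and KD morula library 6 for 29 of 47 (61.7% against 41.2%). Other libraries were nearer to all genes, such as control morula library 1, the lowest for 42.6% of members and 38.5% of all genes. The relative depth of control blastocyst library 1 was 22.1, above the 15.0, 17.2 and 18.4 of the others, and its part in the low values was not tested.

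From the 2-cell stage to the morula most lysosomal and V-ATPase genes rose in control embryos. Of 47 tested members 37 rose, where 43.0% of all 13655 genes tested rose, and 3 fell, where 40.3% did. Grn, Hexa, Scarb2, Mcoln1, Man2b1, Neu1, Atp6v0a1, Atp6v0a4, Atp6v0c-ps1 and Atp6ap1l passed the filter through their morula libraries, not through their 2-cell ones. The filter favours a rise for such genes, and a fall for Ctss, which passed through 2-cell libraries only. A gene was called when its p from limma, adjusted over all genes tested, was under 0.05. The median log2 fold change was 1.25 for the members and 0.10 for all genes. All 8 tested V1 genes rose, as did 7 of 9 V0 genes, 6 of 7 membrane proteins, 5 of 6 glycosidases and 4 of 8 cathepsins. The V0 genes that rose include the pseudogene Atp6v0c-ps2, which shares 80.8% of its 75-base windows with Atp6v0c. The membrane proteins here and below include Npc2, which is a soluble protein.

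Grn, whose product progranulin is processed into granulins in lysosomes, was at 0.31, 0.551, 1.10 and 1.05 FPKM in the control 2-cell libraries and at 126, 73.7, 88.4 and 105 in control morulae. It rose by 5.80 (SE 0.195, adjusted p 2.03e-10) on the log2 scale, the largest rise among the members. Ctsd, an aspartic protease, rose by 5.46 (SE 0.224, adjusted p 9.22e-10), from a mean of 1.49 to 111 FPKM. Grn and Ctsd were thus near 1 FPKM before and near 100 FPKM after. The annotated gene Gm49369 covers 34.4% of the Ctsd exons on the same strand. It went from 1.16 to 109 FPKM over this interval, so the levels of Ctsd are uncertain. Hexa, a subunit of the hexosaminidase that degrades gangliosides, rose from 0.632 to 28.8 FPKM, a log2 change of 4.18 (SE 0.176, adjusted p 1.12e-09). Asah1, the acid ceramidase, went from 2.30 to 53.7 FPKM, a change of 4.08 (SE 0.188, adjusted p 2.37e-09). Lamp1, a main glycoprotein of the lysosomal membrane, rose from 15.8 to 215 FPKM (3.69 on the log2 scale, adjusted p 3.17e-09). In each of these genes every morula library lay above every 2-cell library.

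Only 3 tested members fell over this interval. Ctss, a cysteine protease of antigen-presenting cells, was at 1.73, 3.87, 3.23 and 3.27 FPKM in control 2-cell libraries and was listed at 0 in all control and KD libraries of morulae and blastocysts (adjusted p 3.86e-07). Ctsb, a widely expressed cysteine protease, changed by -1.18 (SE 0.208, adjusted p 0.000202), from a mean of 52.5 to 21.9 FPKM. Atp6v0a2 changed by -0.66 (SE 0.132, adjusted p 0.000573), from 2.81 to 1.41 FPKM.

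From morula to blastocyst fewer members were called in controls. Of 47 tested members 17 rose, where 27.6% of all 11849 genes tested rose, and 7 fell, where 28.8% did, with medians of 0.25 and -0.03. V1 genes rose in 5 of 8 cases and fell in 0, and V0 genes rose in 0 of 9 and fell in 1. Cathepsins fell in 4 of 7 cases and rose in 1. Glycosidases rose in 4 of 6 cases and the lipid-handling genes in 3 of 4.

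Tpp1, a lysosomal tripeptidyl peptidase, was at 1.46, 1.05, 0.538 and 0.961 FPKM in control morulae and at 11.9, 18.4, 31.8 and 21.7 in control blastocysts. Its rise of 3.32 (SE 0.23, adjusted p 4.39e-07) was the largest. Tpp1 passed the filter through its blastocyst libraries, not through its morula ones. Neu1, the lysosomal sialidase, rose from 3.41 to 17.5 FPKM (1.94, adjusted p 1.18e-05). Ppt1, which removes palmitate from proteins, rose from 3.60 to 16.1 FPKM (1.82, adjusted p 2.58e-06). Atp6ap1l, an accessory-like gene, and Atp6v1g1, a subunit of the V1 peripheral stalk, rose by 1.55 and 1.44. Downward, Ctsz, a carboxypeptidase, had the largest fall, of -2.30 (SE 0.176, adjusted p 9.19e-07), from 149.9 to 32.5 FPKM. Ctsa, which also protects Neu1 and beta-galactosidase, changed by -1.38 (adjusted p 0.000155), and Ctsc, which activates serine proteases, by -1.30 (adjusted p 3.58e-05). Ctsh, an aminopeptidase, changed by -1.25 (adjusted p 3.05e-05) and Grn by -1.19 (adjusted p 0.00191). The libraries of the 2 stages did not overlap for any of these genes.

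H2A.Z KD gave 0 called members at the 2-cell stage. limma called 0.0% of the 12160 genes tested as rising and 0.0% as falling, so the members' 0 of 41 matches the rest. At an unadjusted p under 0.05 there were 2 members among 701 genes. They were Ctsc, at 113, 146, 170.2 and 219.7 FPKM in controls and 59.7, 55.6 and 144 in KD, and Psap, the precursor of the saposins that present lipids to hydrolases, with 2.49 ± 0.717 and 0.858 ± 0.572. Ctsc had a log2 fold change of -0.93 (SE 0.329, adjusted p 0.828) with overlapping libraries. Psap had -0.88 (SE 0.243, adjusted p 0.828) and its libraries did not overlap. The member median was -0.13 and that of all genes 0.00. Both genes were named after their values were seen.

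In morulae the knockdown moved few of these genes. Of 47 tested members 2 rose and 3 fell, while 4.23% of all 10989 genes tested rose and 9.04% fell, so both counts are near the background share. The member median was -0.04 and that of all genes 0.02. With low (1 and 2) against high (6 to 8) replicate numbers as a batch term, 4 members rose and 5 fell, while 7.07% and 11.5% of all genes did. Ctsb, Ctsl, Atp6v1f, Atp6v1a and Mcoln1 kept their calls, with KD on the same side of control within each range of numbers, and Atp6v0e and Npc1 were also called as rising (adjusted p 0.0329 and 0.0486) and Gusb and Atp6v0a2 as falling (0.0413 and 0.0489). With no scale factor 7 members fell, as did 14.1% of all genes, and with no filter on low values 0 fell, the adjusted p of Mcoln1, Atp6v1f and Atp6v1a being 0.084, 0.0578 and 0.0821. In blastocysts more were called. Of 48 tested members 7 rose, where 16.7% of 11828 genes rose, and 10 fell, where 19.8% fell, again near the background, with medians of 0.06 and 0.01. By a change over 2-fold as well, 2 rose and 5 fell, where 6.06% and 7.69% of all genes did. By role, in blastocysts 4 of 8 V1 genes, 1 of 3 accessory genes and 3 of 4 lipid-handling genes fell with 0 rising, 2 of 9 V0 genes and 3 of 7 cathepsins rose with 0 falling, 1 of 7 membrane proteins rose and 2 fell, and 0 of 6 glycosidases were called. The numbers per role are small, and no test compared the roles. With no filter 4 rose and 9 fell. Grn, Atp6v0d1, Ctsa and Atp6v0b were then not called as rising and Cd63, Asah1 and Atp6v1d not as falling, at adjusted p of 0.0531 to 0.103, while 1 gene that the filter had left out was called as rising and 2 as falling. With all 22 libraries in a single fit Lamp2 and Ctsc had adjusted p of 0.0664 and 0.0693. Leaving out control blastocyst library 6 gave 6 falling members. In a bulk library, fewer cells of a type, less RNA per cell and a difference in how far the embryos had developed cannot be told apart.

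**Figure D1:**
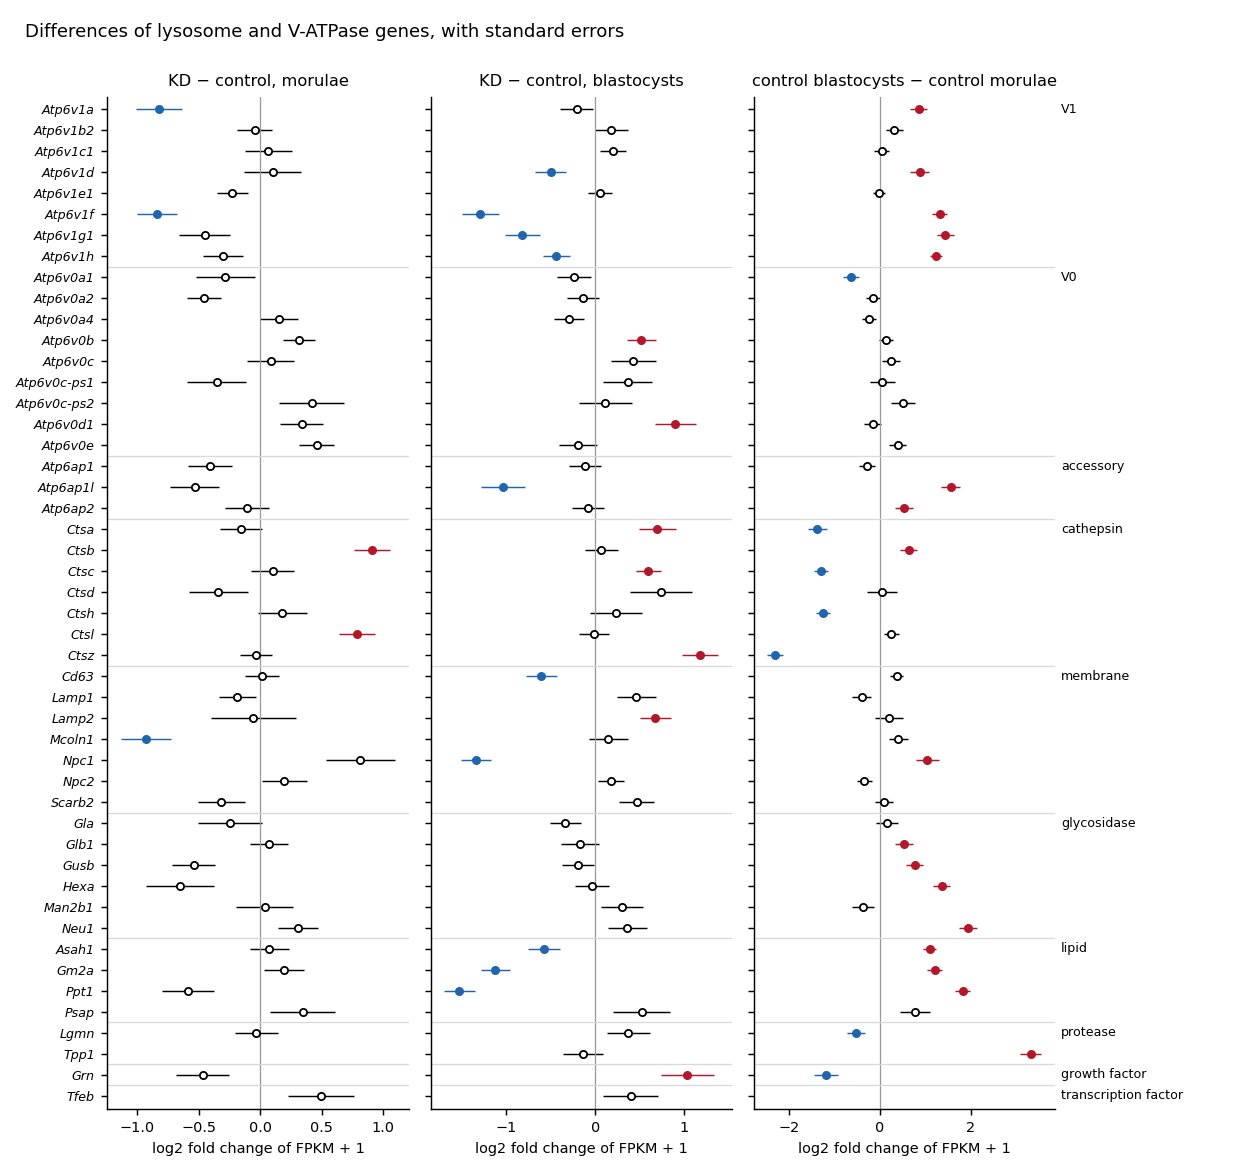
Log2 fold change of FPKM + 1 (x axis) with its standard error for each tested gene (y axis, grouped by role) in KD against control morulae, KD against control blastocysts, and control blastocysts against control morulae. Filled points passed the test (red rose, blue fell) and open points did not; of the V1 genes 4 lie filled on the left in KD blastocysts and 5 lie filled on the right from control morula to blastocyst.

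V1 genes were called in KD only downwards. The V1 list of 14 counts Atp6v1fnb, which is not a subunit and never exceeded 0.0207 FPKM. The 14 genes summed to 684 ± 31.0 FPKM in control and 507 ± 55.8 in KD morulae, and to 1271 ± 26.1 in control and 891 ± 40.6 in KD blastocysts. Blastocyst sums ranged from 1233 to 1292 in controls and from 858 to 943 in KD, with no overlap. Atp6v1f and Atp6v1g1 carried most of that difference, with means of 383 and 319 FPKM in control and 156 and 180.5 in KD blastocysts. Atp6v1f, subunit F of the central rotor, was at 126, 142, 158 and 152 FPKM in control morulae and 79.0, 66.7 and 75.1 in KD morulae. In blastocysts it was at 439, 371, 346 and 377 FPKM in controls and 162, 194, 124 and 147 in KD. Every KD library lay below every control library at both stages. It fell by 0.84 on the log2 scale in morulae (adjusted p 0.0104) and by 1.29 in blastocysts (adjusted p 0.000595). Without KD morula library 2 the morula change was -0.77 with an adjusted p of 0.054.

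Atp6v1a, the catalytic subunit A, was at 28.0, 22.3, 26.5 and 31.0 FPKM in control morulae and 12.3, 12.1 and 16.4 in KD morulae. All KD values were below all control values, and the log2 change was -0.82 (SE 0.185, adjusted p 0.018). Without KD morula library 1 it was -0.73 (adjusted p 0.0782) and without library 2 -0.75 (adjusted p 0.0813). In blastocysts the groups overlapped, with 36.2, 53.9, 70.3 and 53.9 FPKM in controls and 35.2, 40.8, 62.5 and 44.7 in KD, and the change of -0.21 (SE 0.184, adjusted p 0.408) did not pass. With all 3 morula KD libraries kept, 3 members fell; leaving out control morula library 1 gave 6 and leaving out KD morula library 2 gave 0.

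Atp6v1g1 was at 365, 320.5, 283 and 307 FPKM in control blastocysts and 174, 213, 144 and 191 in KD blastocysts. The groups did not overlap and the change was -0.82 (SE 0.2, adjusted p 0.0073). Its pseudogene Gm13453 shares 12.5% of its 75-base windows and stood at 18.0 FPKM in control and 11.4 in KD blastocysts. Atp6v1h, a regulatory subunit, had means of 96.5 ± 9.97 and 70.7 ± 8.59 FPKM without overlap and changed by -0.44 (SE 0.15, adjusted p 0.0374). It was no longer called without control library 1, 4 or 6 or KD library 1 or 5, with changes of -0.39 to -0.48 and adjusted p of 0.0563 to 0.104. Atp6v1d, subunit D of the rotor shaft, had means of 40.3 ± 8.62 and 27.7 ± 3.24 FPKM, overlapped, and changed by -0.50 (SE 0.175, adjusted p 0.0418). Its call was kept without control library 5 and ended without any of the other 7 blastocyst libraries, control 1, 4 and 6 and KD 1, 4, 5 and 6, where the change was -0.43 to -0.52 with adjusted p of 0.0532 to 0.119.

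The other V1 genes did not pass in KD blastocysts. Atp6v1e1, a stalk subunit, had means of 172 ± 11.7 FPKM in controls and 178 ± 9.14 in KD, Atp6v1b2, the partner of subunit A in the catalytic head, 58.7 ± 17.1 and 64.3 ± 8.92, and Atp6v1c1, which joins V1 to V0, 147 ± 18.6 and 167 ± 6.56. Named after their values were seen, they had log2 changes of 0.05, 0.18 and 0.20.

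V0 genes summed to 1326 ± 100.0 FPKM in control and 1513 ± 172 in KD blastocysts, ranges that overlap. The V0 list of 11, 9 of them tested, counts the processed pseudogenes Atp6v0c-ps1 and Atp6v0c-ps2, and the sums include 151 and 175 FPKM of the latter. Atp6v0b, a proteolipid of the rotor ring, was at 202, 330.5, 352 and 289.7 FPKM in control blastocysts and at 423, 409, 413 and 396 in KD blastocysts. All KD values lay above all control values, control library 1 being far below the rest, and the gene rose by 0.52 (SE 0.166, adjusted p 0.0274). The call ended without control library 1 (0.40, adjusted p 0.0672) or 6 (0.51, 0.0714), or without KD library 1 (0.48, 0.0661), 4 (0.50, 0.0584) or 6 (0.54, 0.0553). Atp6v0d1, which links the rotor ring to the V1 shaft, was at 27.3, 45.2, 55.4 and 45.1 FPKM in controls and 102, 50.1, 101 and 74.0 in KD. KD library 4 fell within the control range, and the gene rose by 0.90 (SE 0.23, adjusted p 0.0094), keeping its call in each of the 8 fits that left out a library.

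In morulae the main fit called no V0 gene among 9 tested. Closest were Atp6v0a2, at 1.50, 1.45, 1.50 and 1.20 FPKM in controls and 0.671, 0.653 and 0.708 in KD (adjusted p 0.0541), and Atp6v0e, at 383, 446, 448 and 417 and 578, 517 and 506 (adjusted p 0.0612). Neither gene's groups overlapped, Atp6v0a2 being lower and Atp6v0e higher in KD, and both were named after their values were seen. Both were called with low against high replicate numbers as a batch. Atp6v0c, the main ring proteolipid, had 233 ± 66.9 FPKM in control and 323 ± 130.3 in KD blastocysts (adjusted p 0.201). Its pseudogene Atp6v0c-ps2, a member by its symbol, shares 80.8% of its 75-base windows with Atp6v0c, so its values cannot be told apart from reads of the parent gene.

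Among the accessory genes, Atp6ap1l was at 6.76, 6.07, 6.81 and 4.43 FPKM in control blastocysts and 2.24, 2.04, 1.48 and 4.23 in KD blastocysts. KD library 6 came close to the lowest control without reaching it, and the gene fell by 1.03 on the log2 scale (adjusted p 0.00608). Atp6ap1, which guides V-ATPase assembly, and Atp6ap2, the (pro)renin receptor, were not called at any stage of KD; in blastocysts their means were 51.0 ± 13.6 and 46.1 ± 8.63, and 306 ± 63.4 and 284 ± 30.5 FPKM in control and KD.

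**Figure D2:**
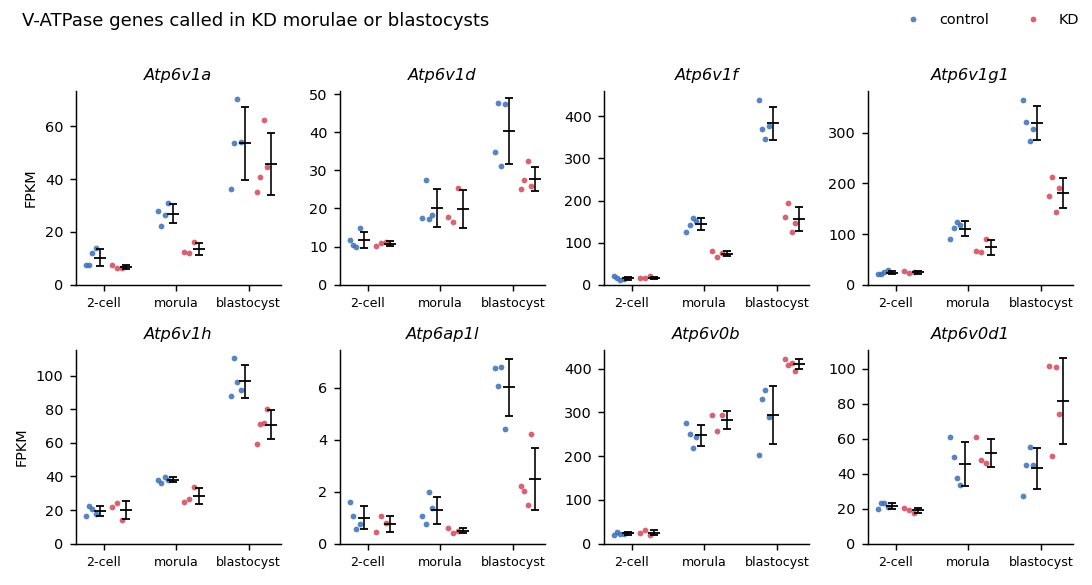
FPKM (y axis, from 0) of the 8 V-ATPase genes called in KD morulae or blastocysts, by stage (x axis); each dot is a library (control blue, KD red), with the mean and SD beside it. In blastocysts all KD dots of Atp6v1f, between 124 and 194 FPKM, lie below all control dots, and those of Atp6v0b lie above.

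The cathepsins called in KD embryos all rose. In morulae Ctsb was at 22.8, 25.5, 18.7 and 20.4 FPKM in controls and 40.3, 35.8 and 38.6 in KD, with all KD values higher. It rose by 0.91 (SE 0.149, adjusted p 0.00581). The squalene synthase gene Fdft1 overlaps 12.8% of the Ctsb exons on the opposite strand, reads carried no strand, and Fdft1 also rose in KD morulae, by 0.66 (SE 0.162, adjusted p 0.0251); its part in the Ctsb values was not tested. Ctsl was at 267, 207, 206 and 267 FPKM in control morulae and 381, 392 and 346 in KD morulae, again with all KD values higher, and rose by 0.79 (SE 0.146, adjusted p 0.00901). In blastocysts neither was called, with changes of 0.07 and -0.02.

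Ctsz was at 20.0, 36.7, 40.7 and 32.6 FPKM in control blastocysts and 87.4, 62.4, 66.2 and 74.8 in KD blastocysts. Every KD value lay above every control value, and the rise was 1.18 (SE 0.201, adjusted p 0.000894). Ctsc was at 149, 173, 184 and 181 FPKM in controls and 230.3, 263, 262 and 282 in KD, also without overlap, and rose by 0.60 (SE 0.14, adjusted p 0.00584). Ctsa was at 76.5, 117, 185 and 111 FPKM in controls and 177, 158, 252 and 180.0 in KD. Control library 5 was as high as the KD libraries, and the gene rose by 0.70 (SE 0.207, adjusted p 0.0194). Without control library 1 its change was 0.55 (adjusted p 0.0507), without 4 it was 0.68 (0.0503) and without 6 it was 0.66 (0.0532). Ctsd had wide spreads, at 54.9, 97.7, 224 and 153 FPKM in controls and 132, 159, 364 and 186 in KD, and its change of 0.74 (SE 0.348, adjusted p 0.115) did not pass. The annotated gene Gm49369 covers 34.4% of the Ctsd exons on the same strand with nearly equal values, 128 FPKM in control and 208 in KD blastocysts, so the levels of Ctsd are uncertain.

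Membrane proteins moved in both directions. Lamp2, which also serves chaperone-mediated autophagy, was at 52.7, 50.4, 55.2 and 46.4 FPKM in control blastocysts and 98.4, 77.4, 74.7 and 78.5 in KD blastocysts. All KD values were higher, and the rise was 0.68 (SE 0.171, adjusted p 0.00891). Npc1, which exports cholesterol from lysosomes, was at 6.08, 5.74, 6.22 and 7.36 FPKM in controls and 1.78, 1.43, 2.71 and 1.76 in KD. All KD values were lower, and the gene fell by 1.34 on the log2 scale (SE 0.17, adjusted p 0.000134). In morulae Npc1 had 2.40, 1.67, 4.99 and 1.41 FPKM in controls and 4.19, 4.48 and 5.09 in KD, overlapping groups, with a change of 0.81 (SE 0.281, adjusted p 0.0809). With low against high replicate numbers as a batch, Npc1 was called as rising there. Its exons overlap those of Rmc1 over 4.52% of their length, and Rmc1 was not called in blastocysts (-0.26 (SE 0.149, adjusted p 0.199)).

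Cd63 was at 3068, 2901, 2918 and 3169 FPKM in control blastocysts and 2171, 2142, 1814 and 1787 in KD blastocysts. The groups did not overlap, and the gene changed by -0.60 (SE 0.178, adjusted p 0.0191). Without control library 6 the change was -0.60 (adjusted p 0.0517) and without KD library 6 it was -0.55 (0.0701). Mcoln1, the calcium channel of lysosomes, was at 3.60, 3.88, 3.04 and 2.97 FPKM in control morulae and 2.05, 0.705 and 0.936 in KD morulae. All KD values were lower, and the change was -0.93 (SE 0.202, adjusted p 0.0161). Without KD library 2 it was -0.76 (adjusted p 0.0723). In blastocysts its groups overlapped, at 2.73, 5.20, 7.85 and 5.68 FPKM in controls and 5.83, 4.83, 6.85 and 5.41 in KD. Npc2, Lamp1 and Scarb2, which carry cholesterol, line the membrane and serve in sorting, were not called in KD at either stage.

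Of 4 tested lipid-handling genes 3 fell in KD blastocysts. Ppt1 was at 14.8, 18.4, 17.4 and 13.8 FPKM in control blastocysts and 3.71, 4.71, 5.26 and 6.05 in KD blastocysts. No value of either group entered the range of the other, and the change was -1.53 (SE 0.171, adjusted p 6.1e-05), the largest fall and the lowest adjusted p among the members. Gm2a, the activator that presents the ganglioside GM2 to hexosaminidase, was at 298, 458, 499 and 391 FPKM in controls and 181, 199, 182 and 175 in KD. The KD libraries lay close together and below all controls, with a change of -1.12 (SE 0.164, adjusted p 0.000326). Asah1 was at 102, 119.5, 143 and 131 and 102, 85.5, 69.8 and 72.8 FPKM, with KD library 1 just inside the control range, and changed by -0.58 (SE 0.183, adjusted p 0.0269). Its call ended without control library 5 (-0.55, adjusted p 0.0593) or 6 (-0.56, 0.0641) or KD library 5 (-0.45, 0.061) or 6 (-0.52, 0.0832). Psap was not called in blastocysts (0.52 (SE 0.321, adjusted p 0.226)).

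Glycosidases gave 0 calls among 6 tested in KD morulae and 0 among 6 in KD blastocysts, with limma. At an unadjusted p under 0.05 there were 2 and 0, beside 3352 of 10989 and 5439 of 11828 for all genes. With low against high replicate numbers as a batch, Gusb was called as falling in morulae. In blastocysts the log2 changes of the glycosidases ran from -0.34 for Gla, the alpha-galactosidase, to 0.36 for Neu1. The proteases Lgmn, an asparaginyl endopeptidase, and Tpp1 were not called in blastocysts either (adjusted p 0.256 and 0.665). Grn was at 23.2, 42.6, 70.7 and 54.8 FPKM in control blastocysts and 61.4, 69.6, 162 and 100.4 in KD blastocysts. The groups overlapped, KD library 5 standing far above the rest, and the gene rose by 1.03 (SE 0.297, adjusted p 0.0166), a call kept in all 8 fits that left out a library.

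Tfeb was low in every group. In control 2-cell libraries it was at 0.0104, 0.0227, 0.0963 and 0.0469 FPKM and in KD ones at 0.0689, 0.018 and 0.0201. Control morulae had 1.91, 0.228, 0.13 and 0.486 and KD morulae 1.50, 1.07 and 0.807 FPKM. Control blastocysts had 0.0657, 0.878, 1.45 and 0.112 and KD blastocysts 0.797, 0.173, 2.13 and 1.48 FPKM. Libraries of the same group differed many-fold in controls of each stage and in KD blastocysts, and less in KD 2-cell embryos and KD morulae. The groups overlapped at each stage. The log2 changes were 0.49 (adjusted p 0.242) in morulae and 0.40 (adjusted p 0.335) in blastocysts, and neither passed.

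**Figure D3:**
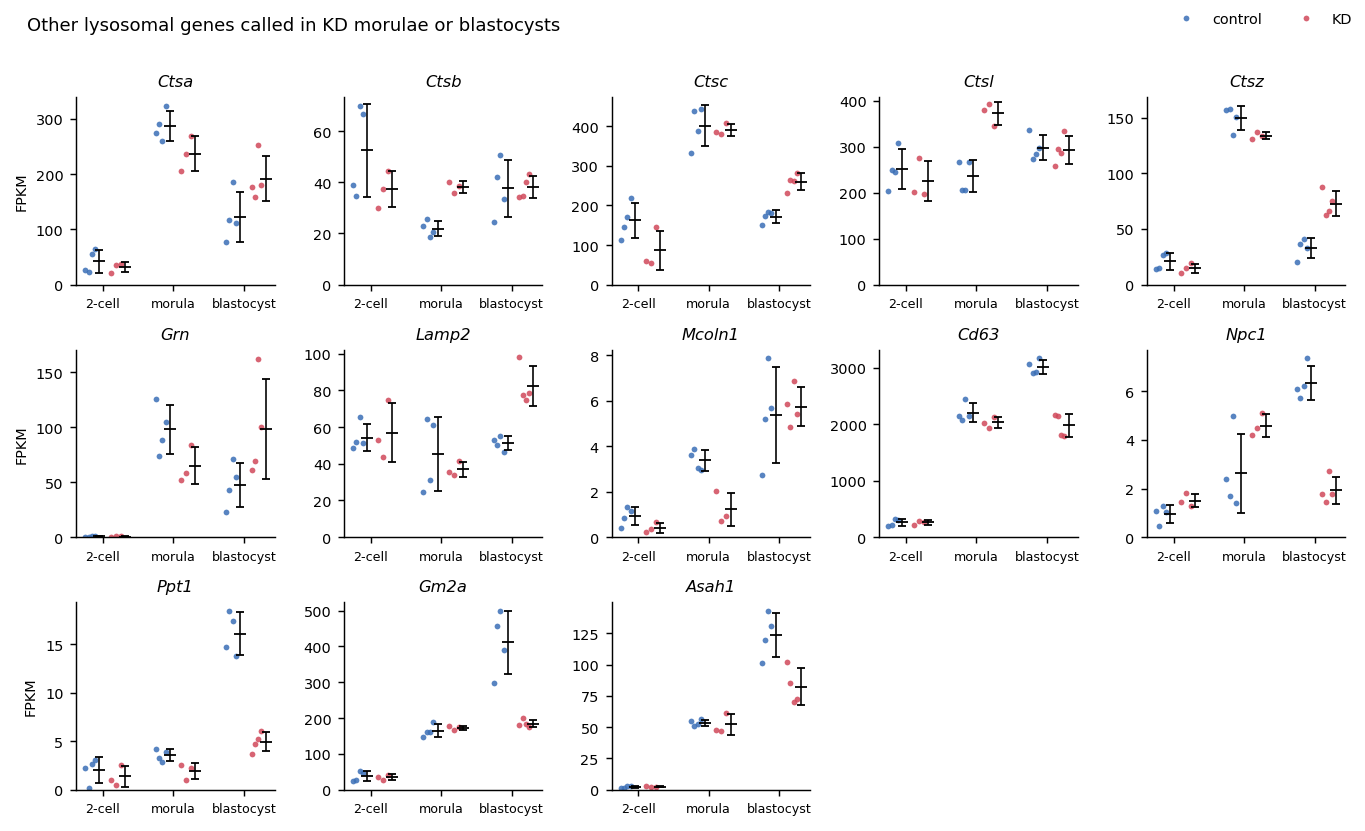
FPKM (y axis, from 0) of the 13 other lysosomal genes called in KD morulae or blastocysts, by stage (x axis); each dot is a library (control blue, KD red), with the mean and SD beside it. In KD blastocysts the dots of Ppt1, Npc1 and Gm2a lie below all control dots, while those of Ctsz, Ctsc and Lamp2 lie above.

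The effect of KD itself differed between blastocysts and morulae for 8 of 48 members in a test of the interaction of stage and treatment. The difference was positive for 3, where 5.43% of all 12727 genes were, and negative for 5, where 6.32% were. It was -2.17 (SE 0.328, adjusted p 0.000573) for Npc1, -1.35 (SE 0.224, adjusted p 0.00111) for Gm2a and -0.95 (SE 0.267, adjusted p 0.0286) for Ppt1, all with lower values in KD blastocysts. For Ctsb and Ctsl, which were higher in KD morulae, it was -0.88 (SE 0.236, adjusted p 0.023) and -0.84 (SE 0.217, adjusted p 0.0183). It was 1.47 (SE 0.412, adjusted p 0.0294) for Grn, 1.18 (SE 0.249, adjusted p 0.00606) for Ctsz and 1.06 (SE 0.304, adjusted p 0.0322) for Mcoln1. None of the V1, V0 or accessory genes differed between the stages by this test, and Atp6v1f had -0.49 (SE 0.274, adjusted p 0.258). The test was not run with replicate numbers as a block or a batch.

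The calls for Npc1, Gm2a and Ctsz held in all 15 fits that left out a library. Ctsb lost its call without KD morula library 1 (-0.87, adjusted p 0.0548) or 6 (-0.84, 0.0538), and Ctsl without KD morula library 2 (-0.80, 0.0542). Grn lost it without control morula library 1 or 8, KD morula 1 or 2, control blastocyst 1 or 4, or KD blastocyst 5 or 6, at 1.22 to 1.43 with adjusted p of 0.0509 to 0.0851. Ppt1 lost it without control morula 2 or 7, KD morula 1 or 6, control blastocyst 1 or 4, or KD blastocyst 1, at -0.81 to -0.94 with adjusted p of 0.0506 to 0.0901. Mcoln1 lost it without control morula 2, KD morula 2 or 6, control blastocyst 1 or 4, or KD blastocyst 1 or 5, at 0.87 to 1.06 with adjusted p of 0.0517 to 0.0973. With no filter on low values the adjusted p was 0.0525 for Ctsb, 0.122 for Grn, 0.067 for Ppt1 and 0.094 for Mcoln1. Without scale factors it was 0.0829 for Ctsb and 0.0585 for Ppt1, and for Ppt1 it was 0.105 with a pseudocount of 0.1 and 0.191 with all 22 libraries in a single fit. The positive count of 3 became 1 without KD morula 2, control blastocyst 1 or 4 or KD blastocyst 5, and 6 without control blastocyst 5, and the negative count of 5 became 3 without KD morula 1 or 6.

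Markers of the cell types of the blastocyst were counted in the same libraries. The sum of the trophectoderm markers was 583.9 to 783.9 FPKM against 990.1 to 1477 in controls, the most abundant being Krt18 at 389.7 against 799 FPKM. Of the 7 markers, Elf5 and Krt18 fell, Tfap2c rose and 4 were not called, and the lower sum is mainly that of Krt18. Of 4 tested inner cell mass markers 1, Tdgf1, fell in blastocysts and 0 rose, the sums being 149 to 293 FPKM in KD and 181 to 296 in controls, with Nanog the most abundant. In morulae 1 of 4 tested, Nanog, fell, from 106 to 20.7 FPKM (-2.23 on the log2 scale, adjusted p 0.00647), the sums being 91.8 to 154 FPKM in KD and 195 to 253 in controls, and 0 of 5 tested trophectoderm markers were called. Primitive endoderm markers summed to 10.2 to 37.4 FPKM in KD and 10.3 to 20.5 in controls, with Gata6 the most abundant and Foxa2 at 0. Of the 2-cell markers Tcstv3 and Zfp352 rose, the list summing to a median of 14.3 FPKM against 2.54. Oocyte markers summed to 741.5 to 1040 FPKM in 2-cell libraries and at most 4.89 in blastocysts. The part of any of these in the values of lysosomal and V-ATPase genes was not tested.

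Other V-ATPase genes that the symbol rule does not take were listed beside the members. The counts of this and the next 4 lists stand beside 4.23% of all genes tested that rose and 9.04% that fell in KD morulae, and 16.7% and 19.8% in KD blastocysts. Several of them are near those shares. Of 10, 6 were tested in morulae, with 0 rising and 1 falling, and 5 in blastocysts, with 0 rising and 2 falling. Vma21, an assembly chaperone of V0, was at 4.39, 4.26, 5.06 and 3.94 FPKM in control and 0.954, 1.24 and 1.46 in KD morulae. In blastocysts it was at 15.0, 11.1, 14.1 and 14.4 and 3.60, 3.32, 2.86 and 2.69 FPKM. It fell at both stages without overlap, by 1.20 (adjusted p 0.00296) and 1.82 (3.48e-05) on the log2 scale. Rogdi, of the complex that helps V1 and V0 join, fell by 0.47 in blastocysts (adjusted p 0.0288). At the 2-cell stage limma called 0 genes in each list of related genes, with 1 of 8, 1 of 10, 0 of 10, 3 of 14 and 3 of 15 at an unadjusted p under 0.05 for the other V-ATPase genes, hydrolases, membrane proteins, sorting genes and TFEB and mTORC1 genes, beside 701 of 12160 for all genes.

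Among 25 other lysosomal hydrolases, 15 were tested in morulae, with 0 rising and 4 falling and a median of -0.29, and 17 in blastocysts, with 1 rising and 5 falling and a median of -0.29. Acp2, an acid phosphatase, went from 3.70 ± 0.74 to 0.284 ± 0.116 FPKM in blastocysts (-1.85 (SE 0.153, adjusted p 7.89e-06)) and changed by -0.86 (adjusted p 0.00955) in morulae. Siae, a sialic acid esterase, changed by -1.33 (adjusted p 9.8e-05) in blastocysts, and Gaa, the acid alpha-glucosidase, rose there by 1.25 (adjusted p 0.00514).

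Of 19 other membrane proteins, 14 were tested in blastocysts, with 5 rising and 3 falling and a median of 0.37; in morulae 1 of 12 rose and 1 fell, with a median of 0.07. Cd68, a macrophage-associated lysosomal glycoprotein, rose by 1.21 (adjusted p 0.00794) in morulae and 0.95 (adjusted p 0.00308) in blastocysts. Cln3 rose by 0.95 (adjusted p 0.0164) in blastocysts, the cystine transporter gene Ctns changed by -0.88 (adjusted p 0.0116), and Slc38a9, an arginine sensor for mTORC1, by -0.87 (adjusted p 0.00107). Of 21 genes for sorting to lysosomes, 1 of 16 fell and 0 rose in morulae, and 4 of 18 rose and 2 fell in blastocysts, with medians of -0.11 and 0.17. Vps29, of the retromer, changed by -1.60 (adjusted p 0.0301) and -1.34 (adjusted p 0.00253) at the 2 stages. Vps11 and Nagpa rose in blastocysts by 0.73 (adjusted p 0.0484) and 0.72 (adjusted p 0.0241), and Vps41 changed by -0.64 (adjusted p 0.0123).

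The list of TFEB relatives and mTORC1 genes at the lysosome had 19 genes. In morulae 0 of 13 rose and 1 fell, with a median of -0.34, and in blastocysts 4 of 14 rose and 4 fell, with a median of -0.17. The Rag GTPases, which bring mTORC1 to lysosomes, moved apart: Rraga changed by -1.46 (adjusted p 7.95e-05) and Rragc by 0.99 (adjusted p 0.0105) in blastocysts. Lamtor4, of the Ragulator that anchors them, changed by -0.62 (adjusted p 0.0255) in morulae and -0.92 (adjusted p 0.00156) in blastocysts. Flcn, which acts on RagC, rose by 0.89 (adjusted p 0.0084) in blastocysts.

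In control development the same lists were counted. From 2-cell to morula, where 43.0% of all genes tested rose and 40.3% fell, 3 of 8 other V-ATPase genes rose and 3 fell, 12 of 16 hydrolases rose and 1 fell, 8 of 11 membrane proteins rose and 1 fell, 11 of 18 sorting genes rose and 2 fell, and 8 of 15 TFEB and mTORC1 genes rose and 6 fell. From morula to blastocyst, where 27.6% of all genes tested rose and 28.8% fell, the lists had 2 of 7, 9 of 17, 4 of 13, 2 of 17 and 5 of 14 rising and 2, 3, 4, 2 and 1 falling.

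Promoter sequences of 300 bases, 250 before to 50 after the start, were found for 49 of the 64 genes, which had 57 promoters. They were searched for CACGTG, the E-box core, and for TCACGTGA, a longer form that contains CACGTG; both are palindromes, so 1 strand shows both. CACGTG stood in a promoter of 13 of the 49 genes (26.5%), against 2187 of 27025 genes with a promoter (8.09%), and TCACGTGA in 7 (14.3%) against 304 (1.12%). By role, CACGTG was found for 3 of 7 V0 genes, 1 of 10 V1 genes (Atp6v1fnb counted among them) and 4 of 10 cathepsins. Of the genes that rose in KD blastocysts 3 of 7 had it, 0 of 5 that fell, and 9 of 24 (37.5%) that were not called, each among genes with a promoter. The comparison took all genes with a promoter, whatever their level, and did not match them for base composition. A match only describes letters in these windows, and binding of TFEB or any other factor was not tested.

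Shown are the promoters with CACGTG (in capitals) of genes called in a KD comparison, so that the position and number of the motifs can be seen: Atp6v0b, Atp6v0d1 and Ctsa rose in KD blastocysts, Ctsl rose and Atp6v1a and Mcoln1 fell in KD morulae. Sequences are from RefSeq, build GRCm38.p6, written 5′ to 3′ on the strand of the gene, and that of Ctsa is 1 of its 2 promoters. The windows of Atp6v1a, Ctsl and Ctsa lie wholly inside the genes as annotated for the exon overlaps. Those genes begin further upstream, at 44139705, 64370890 and 164832873, so the starts used here differ from the annotated ones.
Atp6v0b chr4:117887280-117887579 (- strand): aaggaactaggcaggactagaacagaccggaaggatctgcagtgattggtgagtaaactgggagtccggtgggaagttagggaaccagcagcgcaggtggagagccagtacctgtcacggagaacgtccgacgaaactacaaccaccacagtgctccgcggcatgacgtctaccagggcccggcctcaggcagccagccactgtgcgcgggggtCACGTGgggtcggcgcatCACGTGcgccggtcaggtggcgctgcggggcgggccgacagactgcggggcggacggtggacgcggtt
Atp6v0d1 chr8:105566015-105566314 (- strand): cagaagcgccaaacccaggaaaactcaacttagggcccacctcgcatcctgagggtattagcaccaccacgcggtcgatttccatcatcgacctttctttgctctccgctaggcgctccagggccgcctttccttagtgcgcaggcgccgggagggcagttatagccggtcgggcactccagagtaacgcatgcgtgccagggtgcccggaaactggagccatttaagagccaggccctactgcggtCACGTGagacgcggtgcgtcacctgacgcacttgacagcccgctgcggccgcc
Atp6v1a chr16:44139210-44139509 (- strand): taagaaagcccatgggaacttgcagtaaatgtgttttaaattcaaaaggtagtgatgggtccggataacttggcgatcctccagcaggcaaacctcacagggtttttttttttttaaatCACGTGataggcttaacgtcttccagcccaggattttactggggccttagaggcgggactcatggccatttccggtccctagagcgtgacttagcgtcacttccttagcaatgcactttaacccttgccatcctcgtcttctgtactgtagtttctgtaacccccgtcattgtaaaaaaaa
Ctsa chr2:164833523-164833822 (+ strand): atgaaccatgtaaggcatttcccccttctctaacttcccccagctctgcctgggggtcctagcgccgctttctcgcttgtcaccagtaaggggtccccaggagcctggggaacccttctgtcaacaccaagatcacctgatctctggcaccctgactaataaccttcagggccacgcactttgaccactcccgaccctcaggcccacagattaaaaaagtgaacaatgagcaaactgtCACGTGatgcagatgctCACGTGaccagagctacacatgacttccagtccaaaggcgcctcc
Ctsl chr13:64370471-64370770 (- strand): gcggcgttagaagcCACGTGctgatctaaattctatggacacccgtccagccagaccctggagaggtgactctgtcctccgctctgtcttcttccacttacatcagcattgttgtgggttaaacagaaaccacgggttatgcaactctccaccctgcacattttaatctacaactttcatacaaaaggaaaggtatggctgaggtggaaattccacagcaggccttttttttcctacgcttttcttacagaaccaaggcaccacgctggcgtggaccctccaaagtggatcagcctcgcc
Mcoln1 chr8:3500269-3500568 (+ strand): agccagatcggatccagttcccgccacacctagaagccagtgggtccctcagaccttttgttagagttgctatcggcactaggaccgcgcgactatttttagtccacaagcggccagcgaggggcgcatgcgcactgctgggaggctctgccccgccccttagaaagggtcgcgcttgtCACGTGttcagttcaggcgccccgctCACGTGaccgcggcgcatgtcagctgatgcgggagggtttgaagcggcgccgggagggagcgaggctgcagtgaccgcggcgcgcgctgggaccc
Atp6v0b, Ctsa and Mcoln1 hold CACGTG at 2 places and the others at 1. In Atp6v0b, Atp6v0d1, Ctsa and Mcoln1 the motifs lie nearer to the start of the window's transcript than in Atp6v1a and Ctsl.

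The 64 genes are spread over the genome. Chromosome 6 holds 7 of them and chromosomes 8 and 17 hold 6 each. Some of their products work in pairs. Ctsa stabilizes Neu1, and in KD blastocysts Ctsa rose while Neu1 was not called. Gm2a serves the enzyme that Hexa encodes in part, and Gm2a fell while Hexa was not called. Atp6v0d1 meets the shaft formed with Atp6v1d and Atp6v1f, and Atp6v0d1 rose while the shaft genes fell. The Atp6v1d call was kept in 1 of 8 fits that left out a library. With no filter on low values Ctsa, Atp6v0d1 and Atp6v1d were not called.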

How the data were processed

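The authors aligned reads to mm10 (GRCm38) with STAR and deposited FPKM values from StringTie 2.1.4; their own calls used DESeq2 1.30.1 on featureCounts 1.6.2 counts, which were not used here. The FPKM of each comparison's 22 or fewer libraries were divided by a median-of-ratios scale factor (0.908 to 1.19), filtered at 1 FPKM in at least 3 libraries, and taken as log2 with a pseudocount of 1. limma 3.58.1 (R 4.3.3, eBayes with trend) compared groups, with Benjamini-Hochberg adjustment over all genes tested, and its steps were tested on simulated data. Called means an adjusted p under 0.05, and over 2-fold means an absolute log2 fold change above 1. Python 3.11.15, numpy 2.4.6, pandas 2.3.3, scipy 1.17.1 and matplotlib 3.10.9 made the exact tests, tables and plots. Levels printed are FPKM as deposited.

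Named genes were H2afz and H2afv, up to 15 called members per direction in each KD comparison (values in every library for up to 6 without overlap, and for some others, chosen after their values were seen), the 5 largest changes per direction in control development, subunit paralogues, Tfeb, and up to 4 called genes per further list. Counts of a list cover all its genes, most of them unnamed, and 1 single-gene result is not reported here. The members and lists were chosen with earlier results of these data known. Shared sequence was counted in 75-base windows of annotated exons. Alternatives were a pseudocount of 0.1, no filter, no scale factor, replicate number as a block, low against high replicate numbers as a batch, all 22 libraries in one fit, and leaving out each library. The block and the batch were run for KD against control within a stage, not for the interaction or control development. The fit of all 22 libraries was not run for control development.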

Additional observations from a re-analysis of the deposited data

Results flagged for a closer look

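In 112 groups of 4 libraries, for 29 genes, 5 held a library far from the other 3; chance gives about 1 in 20 groups. Atp6v0a2 was at 3.25 FPKM in control 2-cell library 4, with the next at 2.697, and at 1.20 FPKM in control morula library 8, with the next at 1.449. Atp6v1d was at 27.6 FPKM in control morula library 2 against 17.3 to 18.3. Ctsh was at 7.64 FPKM in control 2-cell library 1 against 20.0 to 22.4. Lamp2 was at 98.4 FPKM in KD blastocyst library 1 against 74.7 to 78.6.

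For 8 of 48 members the KD effect in blastocysts differed from that in morulae in the interaction test, 3 upwards and 5 downwards, where 5.43% and 6.32% of all genes did. The log2 difference was -2.17 for Npc1, -1.35 for Gm2a, -0.95 for Ppt1, -0.88 for Ctsb and -0.84 for Ctsl, and 1.47 for Grn, 1.18 for Ctsz and 1.06 for Mcoln1. Of 15 fits that each left out a library, the call was kept in all for Npc1, Gm2a and Ctsz, in 14 for Ctsl, 13 for Ctsb, 8 for Ppt1, 8 for Mcoln1 and 7 for Grn.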

How the results depend on the processing

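Of 653 values of called genes under the alternatives, 578 kept their direction and side of the threshold, 75 kept the direction and missed the threshold, and 0 reversed. Of the counts of members, these moved, and the cause was not tested. With no filter on low values, more genes entered the fit and 0 members fell in KD morulae (3 with the filter), 4 rose in KD blastocysts (7), 5 fell from control 2-cell to morula (3) and 1 had a higher KD effect in blastocysts than in morulae (3). FPKM without a scale factor gave 7 falling in KD morulae, and 5 with a higher KD effect in blastocysts. That scaling moved the median of all genes in KD morulae from 0.02 to -0.09 and the share of called genes that rose from 31.9% to 15.3%, and in the interaction from -0.01 to 0.11 and from 46.2% to 56.0%. With replicate number as a block 5 fell in KD morulae, where 7.66% of all genes fell. Only numbers 1 and 2 occur in both morula groups, and that fit tested 10113 genes against 10989 in the main fit. The block and the data tested thus changed together. With low against high replicate numbers as a batch 4 rose and 5 fell in KD morulae, where 7.07% and 11.5% did. Deviations of control and KD libraries from their group means correlated across genes at a mean of 0.146, 0.138 and 0.0826 for equal replicate numbers at the 3 stages (3, 2 and 4 pairs), and not every library correlated best with its own number. By range of numbers, morulae split in full: the 6 pairs within a range had 0.0944 to 0.347 and the 6 pairs across had -0.278 to -0.0945. In 2-cell embryos 5 of 6 pairs within a range were positive and 1 of 6 across, and in blastocysts 6 of 10 and 2 of 6. The labels give no meaning to the numbers.

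Leaving out each library gave 2 to 3 rising and 0 to 6 falling members in KD morulae, 5 to 10 rising and 6 to 9 falling in KD blastocysts, and 0 in both directions at the 2-cell stage. In control development it gave 35 to 38 rising and 3 falling up to the morula, and 15 to 19 rising and 6 to 8 falling after it. In the interaction it gave 1 to 6 positive and 3 to 6 negative differences. Without control blastocyst library 1, low for most members, 5 rose and 8 fell in KD blastocysts. With 3 or 4 libraries a group, values of genes near 1 FPKM can be imprecise, such as those of Tfeb in control morulae, at 0.688 ± 0.827 FPKM.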
